A study of Mus musculus with 20 samples.

Results

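The 49 genes described here encode the proteasome and the proteins that assemble and regulate it. They are the rows of the deposited table whose symbol begins with Psma to Psmg followed by a number, and they were taken from 24528 genes in all. None of the 49 was at 0 in every library. They comprise 16 core genes (Psma1 to Psma8, Psmb1 to Psmb7 and Psmb11), 3 immunoproteasome genes (Psmb8, Psmb9 and Psmb10), 6 ATPase genes (Psmc1 to Psmc6), 14 non-ATPase genes (Psmd1 to Psmd14), 5 activator genes (Psme1, Psme2, Psme2b, Psme3 and Psme4), the inhibitor Psmf1 and 4 assembly genes (Psmg1 to Psmg4).

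Mice were 18 months old, and RNA-seq libraries were made from neocortical and hippocampal total RNA after depletion of ribosomal RNA. TDP43-KQ mice are homozygous for a lysine-to-glutamine acetylation mimic placed by CRISPR/Cas9 into the endogenous Tardbp gene, which encodes the RNA-binding protein TDP-43. The edited allele also carries silent changes made for genotyping, the mutation is present in every cell, and the line came from C57BL/6J zygotes and was propagated from founders. TDP43-WT mice carry the unedited gene. The neocortex had 5 TDP43-WT and 6 TDP43-KQ libraries, and the hippocampus had 4 and 5. Each group held both sexes, and female (F) and male (M) libraries are named by the number their labels give.

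The 26S proteasome degrades proteins tagged with ubiquitin. Its barrel-shaped 20S core is built from alpha subunits (Psma genes) and beta subunits (Psmb genes), of which Psmb5, Psmb6 and Psmb7 hold the catalytic sites. The 19S regulatory particle caps the core, and its ATPases (Psmc genes) unfold substrates while its non-ATPase subunits (Psmd genes) bind and remove ubiquitin and form the lid. Psmd5, Psmd9 and Psmd10 are chaperones that help to build the 19S base and are not part of the finished particle. In the immunoproteasome, Psmb8, Psmb9 and Psmb10 take the places of Psmb5, Psmb6 and Psmb7, and the products are used in antigen presentation. In neurons, proteasomes clear damaged and short-lived proteins, and ubiquitin-positive inclusions of TDP-43 are a hallmark of frontotemporal lobar degeneration.

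The values are log2-like. The authors removed the effects of sex and litter, and each gene was centred so that its mean over the 6 neocortex TDP43-KQ libraries is 0. A value is therefore a difference from that mean, and neither the level of a gene nor the depth of a library can be read from it. Removing litter also fixed some libraries. Neocortex TDP43-WT M1 was the only library of its litter and sits at its group mean for every gene. The neocortex and hippocampus TDP43-KQ F2 libraries were alone in theirs, and their deviations mirror each other. The targeted gene, Tardbp, separated the genotypes without overlap in both regions, being higher in TDP43-KQ by 1.00 ± 0.09 (SE) in the neocortex (adjusted p = 0.000117) and by 0.83 ± 0.10 in the hippocampus (adjusted p = 0.00163). Tests are limma fits of all 20 libraries over 17863 genes with Benjamini-Hochberg adjustment. The tissue is bulk, so fewer cells of a type and less RNA per cell cannot be told apart.

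The promoters of 4 members are shown because the results below turn on these genes. Psmd12 and Psmd4 had the smallest p-values among the members in the comparison of genotypes in the neocortex, and Psmc5 and Psmb10 were lower in the hippocampus in both genotypes. Each run is the 250 bases before the annotated start from RefSeq (GRCm38.p6), written 5′ to 3′ on the strand of the gene. Capitals mark matches on either strand to CCGGAAG (the core of an ETS site), CCAAT (the CCAAT box), TGACNNNGC (the core of an antioxidant response element, at which the proteasome regulator Nfe2l1 can bind) and GAAANNGAA (part of an interferon-stimulated response element).
Psmd12 (chr11:107479278-107479527, plus strand): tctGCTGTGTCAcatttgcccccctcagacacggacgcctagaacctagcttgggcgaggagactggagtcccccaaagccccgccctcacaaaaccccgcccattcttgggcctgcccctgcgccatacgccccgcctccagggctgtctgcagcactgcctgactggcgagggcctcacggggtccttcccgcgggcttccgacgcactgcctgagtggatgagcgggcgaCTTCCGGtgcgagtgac
Psmd4 (chr3:95042615-95042864, minus strand): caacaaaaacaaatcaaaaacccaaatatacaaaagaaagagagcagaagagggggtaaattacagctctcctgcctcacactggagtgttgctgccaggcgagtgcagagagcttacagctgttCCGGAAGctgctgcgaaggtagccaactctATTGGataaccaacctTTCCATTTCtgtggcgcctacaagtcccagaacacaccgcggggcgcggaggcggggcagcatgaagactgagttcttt
Psmc5 (chr11:106255935-106256184, plus strand): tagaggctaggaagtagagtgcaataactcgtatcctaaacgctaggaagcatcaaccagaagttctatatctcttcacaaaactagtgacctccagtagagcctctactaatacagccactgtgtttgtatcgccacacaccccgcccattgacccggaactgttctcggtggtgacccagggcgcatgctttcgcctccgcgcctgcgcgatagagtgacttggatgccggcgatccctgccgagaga
Psmb10 (chr8:105938393-105938642, minus strand): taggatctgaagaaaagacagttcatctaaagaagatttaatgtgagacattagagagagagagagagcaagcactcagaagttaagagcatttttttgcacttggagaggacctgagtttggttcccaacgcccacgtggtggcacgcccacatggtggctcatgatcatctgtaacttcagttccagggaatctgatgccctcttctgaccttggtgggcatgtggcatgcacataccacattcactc

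Psmd12 held TGACNNNGC 247 bases and CCGGAAG 17 bases before the start. Psmd4 held CCGGAAG at 125, CCAAT at 95 and GAAANNGAA at 79 bases, while Psmc5 and Psmb10 held no match to any of the motifs. Of the 49 members, 41 had a promoter in the RefSeq table. A gene symbol was counted as holding a motif if any of its promoters matched. CCGGAAG was in 12 of these 41 (29.3%) and in 7.83% of all 27025 symbols with a promoter, over the same length. The members holding it were 5 non-ATPase genes, 3 ATPase genes, 2 activator genes, 1 assembly gene and 1 core gene. CCAAT was in 14 of 41 (34.1%, all symbols 37.5%), TGACNNNGC in 5 (12.2%, all symbols 11.5%) and GAAANNGAA in 3 (7.32%, all symbols 8.18%). Of the 3 immunoproteasome promoters, that of Psmb9 held CCAAT, and no other motif was matched in any of them. The members lie on 16 chromosomes. Psmb9 (chr17:34182030-34187330) and Psmb8 (chr17:34198195-34201454) flank Tap1 (chr17:34187556-34197225), which encodes a subunit of the peptide transporter of antigen presentation and begins 225 bases from Psmb9.

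**Figure D1:**
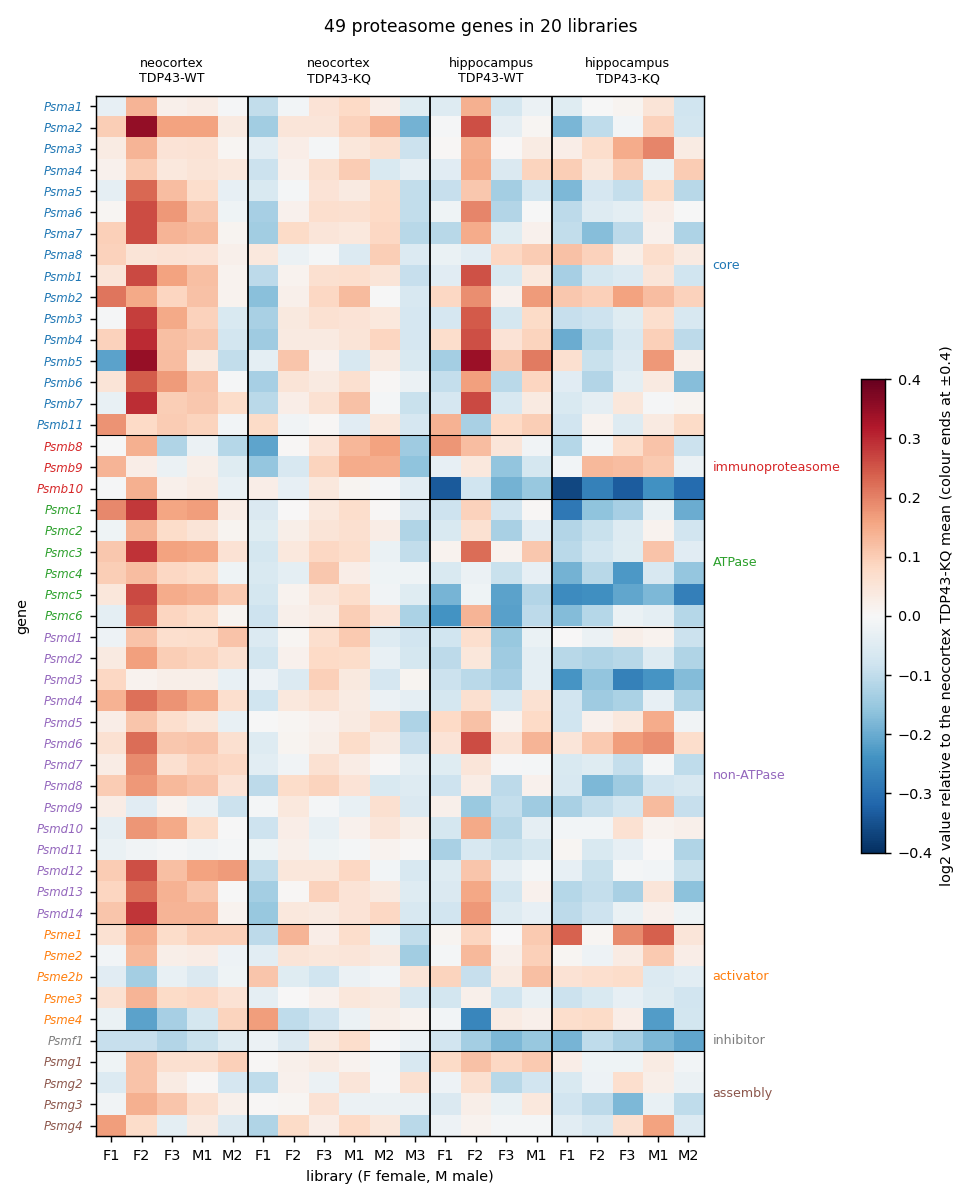
Values of the 49 proteasome genes (rows, grouped by class) in the 20 libraries (columns, grouped by region and genotype), as log2 differences from the neocortex TDP43-KQ mean. Red is higher and blue lower, and colours end at 0.4 in either direction. Most core and regulatory genes are red in TDP43-WT F2 of both regions, and Psmb10, Psmc5 and Psmd3 are blue across the hippocampus TDP43-KQ libraries.

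The first comparison asked whether TDP43-KQ changed proteasome transcripts in the neocortex. No member passed an adjusted p of 0.05, against 40 of all 17863 genes (0.224%). At an unadjusted p under 0.05 there were 5 members of 49 (10.2%), all lower in TDP43-KQ, against 14.4% of all genes. The members nevertheless leaned one way: 43 of 49 had a lower value in TDP43-KQ and 6 a higher one, with a median difference of -0.073 (all genes tested -0.0017, of which 50.7% were lower). All 16 core genes were lower (median -0.099), as were all 6 ATPase genes (median -0.11) and 12 of 14 non-ATPase genes (median -0.091). These are small differences, and the members' standard errors ran from 0.037 to 0.11.

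The smallest p-values were those of Psmd12 and Psmd4, both genes of the 19S particle. Size did not set the particle apart, as the core gene Psma2 had a difference of -0.16 with a larger standard error (0.09). Psmd12, a lid subunit, was at 0.10, 0.26 and 0.12 in TDP43-WT F1 to F3 and at 0.16 and 0.17 in M1 and M2. In TDP43-KQ it ran from -0.098 through a median of 0.017 to 0.082. Every TDP43-KQ library was thus below every TDP43-WT library, and the difference was -0.16 ± 0.05 (adjusted p = 0.216). Psmd4, the ubiquitin receptor also called Rpn10, was at 0.14, 0.22 and 0.18 in TDP43-WT F1 to F3 and at 0.15 and 0.067 in M1 and M2. It ran from -0.079 through 0.0056 to 0.061 in TDP43-KQ, again without overlap, and differed by -0.15 ± 0.05 (adjusted p = 0.223). Psme3, which encodes the nuclear activator PA28 gamma, was the only other member without overlap, at 0.057 to 0.14 in TDP43-WT and -0.063 to 0.046 in TDP43-KQ (difference -0.083 ± 0.039, adjusted p = 0.351). The 3 members amount to 6.12% of the 49, against 4.34% of all genes with TDP43-KQ wholly below TDP43-WT. No member was wholly above (all genes 4.29%).

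Among the ATPases, Psmc1 differed by -0.17 ± 0.06 (adjusted p = 0.282), Psmc3 by -0.15 ± 0.07 (adjusted p = 0.324) and Psmc5 by -0.14 ± 0.06 (adjusted p = 0.289). In Psmc1 the TDP43-WT libraries F1, F2 and F3 were at 0.19, 0.28 and 0.16, M1 was at 0.17 and M2 at 0.031, within the TDP43-KQ range of -0.058 to 0.069. The core genes with the lowest differences were the alpha subunits Psma2 (-0.16 ± 0.09) and Psma7 (-0.13 ± 0.07) and the beta subunit Psmb1 (-0.12 ± 0.08), with adjusted p of 0.419, 0.423 and 0.453. At the other end stood the core genes Psma1 (-0.030 ± 0.058), Psmb5 (-0.040 ± 0.114) and Psma4 (-0.051 ± 0.057). The highest values outside the core were those of the inhibitor Psmf1 (0.088 ± 0.042, adjusted p = 0.349), the ATP-independent activator Psme4 (0.071 ± 0.089) and Psme2b (0.056 ± 0.057), a copy of Psme2 that can share its reads.

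**Figure D2:**
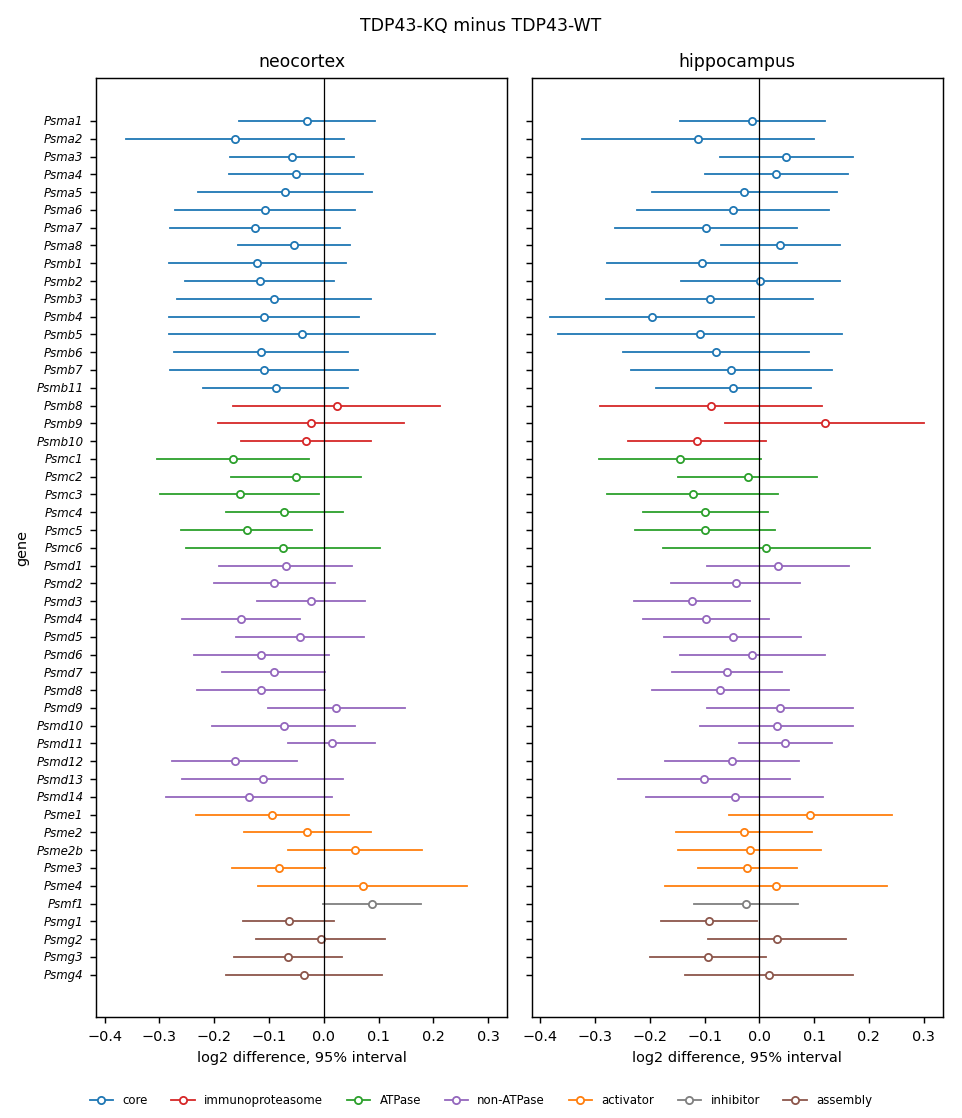
TDP43-KQ minus TDP43-WT for each member (rows, coloured by class) in the neocortex (left) and hippocampus (right), as a log2 difference with its 95% confidence interval from the limma fit. Open points did not pass an adjusted p of 0.05, and every point is open. In the neocortex 43 of 49 points lie left of 0, and in the hippocampus 35.

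In the hippocampus no member passed either, against 69 of all genes (0.386%). At an unadjusted p under 0.05 there were 3 members (6.12%), against 14.8% of all genes. The median over the 49 was -0.047 (all genes -0.0010), with 35 lower and 14 higher. By class, 12 of 16 core, 5 of 6 ATPase and 10 of 14 non-ATPase genes were lower in TDP43-KQ, with medians of -0.049, -0.099 and -0.047.

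Psmd3, a lid subunit, was at -0.087, -0.11, -0.13 and -0.040 in TDP43-WT F1, F2, F3 and M1. In TDP43-KQ it was at -0.24, -0.16 and -0.27 in F1 to F3 and at -0.24 and -0.17 in M1 and M2. The genotypes did not overlap, and the difference was -0.12 ± 0.05 (adjusted p = 0.274). Psmg1, an assembly chaperone of the alpha ring, was at 0.076, 0.12, 0.081 and 0.11 in TDP43-WT and between -0.018 and 0.032 in TDP43-KQ (difference -0.092 ± 0.041, adjusted p = 0.320). It was the other member without overlap, making 2 of 49 (4.08%) against 5.45% of all genes lower in TDP43-KQ and, in the opposite direction, 0 of 49 against 4.19%. Psmb4, a beta subunit of the core, had the lowest difference of all members (-0.20 ± 0.09, adjusted p = 0.316), and its TDP43-WT libraries were at 0.069, 0.26, 0.056 and 0.089.

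Of the remaining core genes, Psma2 (-0.11 ± 0.10) and Psmb5 (-0.11 ± 0.12) were next, and Psma3 (0.049 ± 0.057), Psma8 (0.038 ± 0.051) and Psma4 (0.031 ± 0.061) had the highest values. Psma8 is a testis-specific alpha subunit in textbook accounts, and its level here cannot be read. Outside the core, Psmc1 (-0.15 ± 0.07) and Psmc3 (-0.12 ± 0.07) had the lowest values beside Psmd3, and the highest were those of Psmb9 (0.12 ± 0.09), the interferon-inducible activator Psme1 (0.093 ± 0.070) and the lid subunit Psmd11 (0.048 ± 0.040).

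Across the regions, 32 of 49 members (65.3%) were lower in TDP43-KQ in both and 3 were higher in both, against 34.3% of all genes lower in both. The 2 regions may come from some of the same mice, so these counts cannot be taken as independent. The difference between the regions in the genotype effect was tested as an interaction. No gene of the table passed (0%), and 5.83% of all genes but 0 of 49 members reached an unadjusted p under 0.05. The activator Psme1 came nearest, with an interaction of 0.19 ± 0.09 (adjusted p = 0.8287).

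Most core and regulatory genes varied together from library to library. Taking the 36 core, ATPase and non-ATPase genes, 31 were above their group mean in neocortex TDP43-WT F2 and 32 in hippocampus TDP43-WT F2. The count was highest in hippocampus TDP43-KQ M1, at 34, and was 31 in neocortex TDP43-KQ F3 and M1. In contrast, 3 were above the group mean in neocortex TDP43-WT M2, 2 in neocortex TDP43-KQ F1 and 2 in hippocampus TDP43-WT F3. The share of all genes above the group mean lay between 48.3% and 54% in every library but neocortex TDP43-WT M1, which has no deviation.

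The median value of the 36 genes was 0.046, 0.22, 0.11, 0.091 and 0.011 in neocortex TDP43-WT F1, F2, F3, M1 and M2. In neocortex TDP43-KQ it ran from -0.076 (F1) through 0.026 to 0.055 (M1). The groups overlapped, as they did in the hippocampus, where TDP43-WT F1, F2, F3 and M1 were at -0.060, 0.14, -0.068 and 0.012 and TDP43-KQ between -0.085 and 0.023. Without both TDP43-WT F2 libraries, left out after the values had been seen, the median difference of the 36 genes between genotypes was -0.059 in place of -0.091 in the neocortex, with 32 in place of 34 genes lower. In the hippocampus it was -0.018 in place of -0.049, with 20 in place of 27 lower. Other libraries moved this median too, in either direction. With each library left out in turn, it ran in the neocortex from -0.14 (without neocortex TDP43-WT M2) to -0.053 (without neocortex TDP43-KQ F1). In the hippocampus it ran from -0.076 (without hippocampus TDP43-WT F3) to -0.019 (without hippocampus TDP43-WT F2).

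Within litter 6, where 1 TDP43-KQ and 2 TDP43-WT females can be compared, the median difference of the 36 genes was -0.19 in the neocortex (35 lower) and -0.11 in the hippocampus (32 lower). Within litter 5, with 2 TDP43-KQ males and 1 TDP43-WT male, it was -0.021 (23 lower) and -0.046 (25 lower). Litter 6 holds TDP43-WT F2. No other litter held both genotypes within a sex and region. Psmd12 was lower in TDP43-KQ in each of these, by -0.28 and -0.21 in the neocortex and by -0.064 and -0.042 in the hippocampus.

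Other abundant housekeeping groups swung with the same libraries. Both groups were chosen after the values had been seen. The median of 77 cytosolic ribosomal protein genes was 0.40 in neocortex and 0.36 in hippocampus TDP43-WT F2, the highest of either region. That of 46 Nduf genes, which encode subunits and assembly factors of mitochondrial complex I, was 0.30 and 0.19 there. Their genotype medians, with no call among either group, were -0.17 and -0.14 in the neocortex and -0.15 and -0.085 in the hippocampus. Their part in the proteasome values was not tested.

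**Figure D3:**
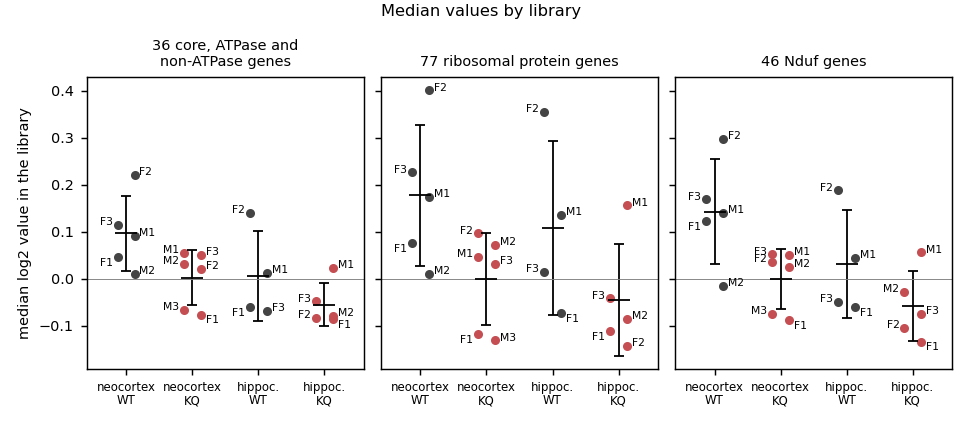
Median log2 value per library of the 36 core, ATPase and non-ATPase genes (left), 77 cytosolic ribosomal protein genes (middle) and 46 Nduf genes (right), for TDP43-WT (grey) and TDP43-KQ (red) in each region. Points are libraries named by sex and number, and bars give the group mean ± SD. TDP43-WT F2 is highest in its group in all 3 panels of both regions, and the genotypes overlap.

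Members differed in how much they varied. The SD of the residuals from the fit, which measures spread between libraries of a group, had a median of 0.114 over the core genes, 0.088 over the ATPases and 0.077 over the non-ATPase genes (all genes tested 0.088). Psmb5, which holds the chymotrypsin-like site, had the largest SD of all members at 0.185, and Psmd11 the smallest at 0.038.

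The catalytic subunits were compared with the immunoproteasome subunits that replace them. Psmb5 in the neocortex was at -0.22, 0.35 and 0.12 in TDP43-WT F1 to F3 and at 0.040 and -0.097 in M1 and M2, a range that encloses the TDP43-KQ libraries (-0.063 to 0.11). Psmb6 and Psmb7 had differences of -0.11 ± 0.07 and -0.11 ± 0.08 in the neocortex and -0.079 ± 0.079 and -0.051 ± 0.086 in the hippocampus. None of the 3 passed (lowest adjusted p = 0.469, Psmb6 in the neocortex).

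Psmb8 and Psmb9 gave no call for genotype. Psmb8 ran from -0.12 to 0.14 in neocortex TDP43-WT and from -0.21 to 0.16 in TDP43-KQ, a difference of 0.024 ± 0.089 (adjusted p = 0.921). In the hippocampus it differed by -0.088 ± 0.095 (adjusted p = 0.701). Psmb9 was at -0.034, 0.042, -0.16 and -0.069 in hippocampus TDP43-WT and between -0.023 and 0.13 in TDP43-KQ. That difference was 0.12 ± 0.09 (adjusted p = 0.538), beside -0.023 ± 0.080 (adjusted p = 0.916) in the neocortex. Psmb10 differed between genotypes by -0.032 ± 0.055 (adjusted p = 0.807) in the neocortex and by -0.11 ± 0.06 (adjusted p = 0.388) in the hippocampus.

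Genes of interferon signalling and antigen processing, which act with the immunoproteasome, were 14 in number. For genotype they gave 1 call in the hippocampus (all genes 0.386%) and 0 in the neocortex (all genes 0.224%). At an unadjusted p under 0.05 there were 5 and 1 of them, against 14.8% and 14.4% of all genes. In each region 11 had a higher value in TDP43-KQ and 3 a lower one, with medians of 0.10 and 0.038. Of all genes, 50.4% and 50.7% were lower. The call was Irf9, a transcription factor of the interferon response, which was at -0.071, -0.40, -0.13 and -0.15 in TDP43-WT and between 0.15 and 0.27 in TDP43-KQ. It rose by 0.39 ± 0.07 (adjusted p = 0.0232), and in the neocortex the genotypes did not overlap either (0.23 ± 0.06, adjusted p = 0.153). Tap1 differed by 0.12 ± 0.07 (adjusted p = 0.417) in the neocortex and -0.0029 ± 0.0712 (adjusted p = 0.991) in the hippocampus, and Tap2, the other transporter subunit, by 0.021 ± 0.067 and 0.095 ± 0.071. Markers of microglia, the resident immune cells of the brain, had lower values in TDP43-KQ for 6 of 6 genes in both regions, with medians of -0.14 and -0.15 and no call. Their median per library ran from 0.031 to 0.31 in neocortex TDP43-WT and from -0.12 to 0.090 in TDP43-KQ. In the hippocampus it ran from 0.077 to 0.47 and from -0.064 to 0.092, and their part in the immunoproteasome values was not tested.

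**Figure D4:**
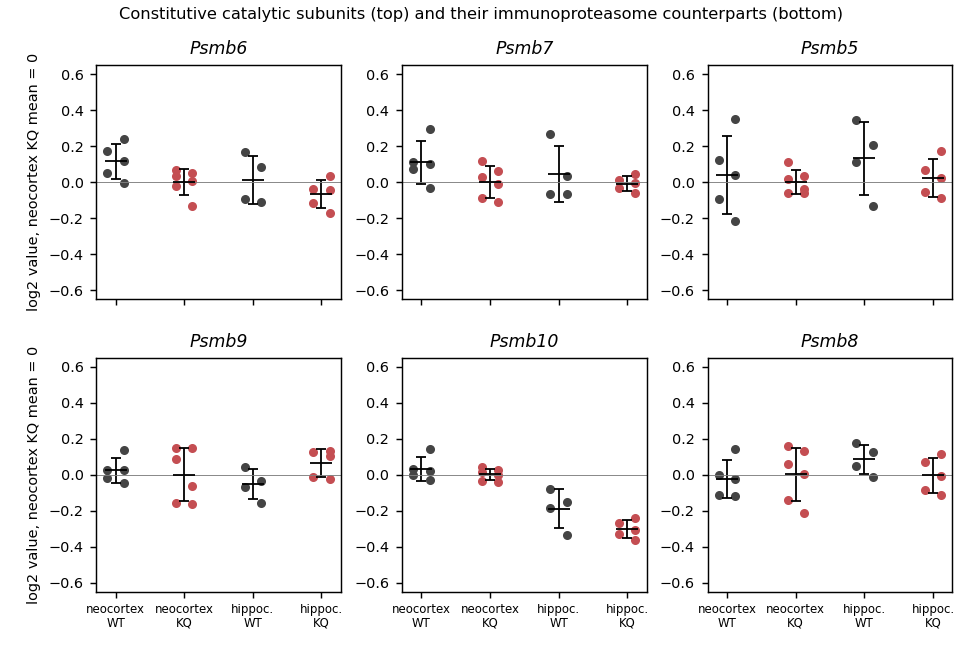
Log2 values by library of the constitutive catalytic subunits Psmb6, Psmb7 and Psmb5 (top) and of Psmb9, Psmb10 and Psmb8, which replace them in the immunoproteasome (bottom). Points are libraries (grey TDP43-WT, red TDP43-KQ) and bars the group mean ± SD. The genotypes overlap in every panel, and Psmb10 lies lower in the hippocampus, at -0.36 to -0.081, than in the neocortex, at -0.042 to 0.14.

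The regions were then compared within each genotype. In TDP43-WT 6 of 49 members (12.2%) passed with a lower value in the hippocampus, against 14.7% of all genes, and 0 passed with a higher value, against 13.5%. In TDP43-KQ the counts were again 6 lower (all genes 18.2%) and 0 higher (all genes 17.2%). The median over the 49 was -0.074 in TDP43-WT and -0.043 in TDP43-KQ (all genes 0.0054 and 0.013), and 40 and 35 of the 49 were lower.

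Psmb10 and Psmc5 passed in both genotypes. Psmb10 was at -0.34, -0.081, -0.19 and -0.15 in hippocampus TDP43-WT F1, F2, F3 and M1, against -0.0054, 0.14, 0.019, 0.032 and -0.028 in the neocortex. All hippocampal libraries lay below all neocortical ones, and the gene fell by 0.22 on the log2 scale (SE 0.06, adjusted p = 0.00835). In TDP43-KQ the hippocampal libraries were at -0.36, -0.27, -0.33, -0.24 and -0.31 and the neocortical ones between -0.042 and 0.041, a difference of -0.30 ± 0.05 (adjusted p = 0.000213). Psmc5, an ATPase of the 19S base, was at -0.19, -0.017, -0.21 and -0.12 in hippocampus TDP43-WT and between 0.044 and 0.26 in the neocortex (difference -0.27 ± 0.06, adjusted p = 0.00211). In TDP43-KQ it was at -0.25, -0.25, -0.21, -0.18 and -0.27 against -0.070 to 0.072 (difference -0.23 ± 0.05, adjusted p = 0.00217). Neither gene lost its call in either genotype when any single library was left out.

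Psmd3 and Psmf1, the inhibitor that competes with activators for the core, passed in TDP43-KQ and not in TDP43-WT. Psmd3 fell by 0.22 on the log2 scale (SE 0.04, adjusted p = 0.000860) and had a difference of -0.12 ± 0.05 in TDP43-WT (adjusted p = 0.0837). Psmf1 fell by 0.16 (SE 0.04, adjusted p = 0.00368) and had a difference of -0.048 ± 0.043 in TDP43-WT (adjusted p = 0.432). The test of the difference between the genotypes passed for neither (adjusted p = 0.8565 and 0.8287), and both calls remained with any single library left out.

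The other calls depended on single libraries. In TDP43-WT these were Psme3 (-0.12 ± 0.04, adjusted p = 0.0339), Psmd4 (-0.15 ± 0.05, adjusted p = 0.0388), Psmd12 (-0.16 ± 0.05, adjusted p = 0.0423) and the scaffold subunit Psmd2 (-0.15 ± 0.05, adjusted p = 0.0471). Without neocortex TDP43-WT F2 their adjusted p became 0.115, 0.129, 0.150 and 0.153, and only Psmb10 and Psmc5 were called. Without hippocampus TDP43-WT F3 they became 0.140, 0.168, 0.149 and 0.219. Leaving out hippocampus TDP43-WT F2 instead gave 11 calls. In TDP43-KQ the remaining calls were the ATPases Psmc4 (-0.15 ± 0.04, adjusted p = 0.0169) and Psmc1 (-0.16 ± 0.06, adjusted p = 0.0428). Their adjusted p were 0.120 and 0.147 without neocortex TDP43-KQ F3 and 0.0572 and 0.167 without hippocampus TDP43-KQ F1.

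**Figure D5:**
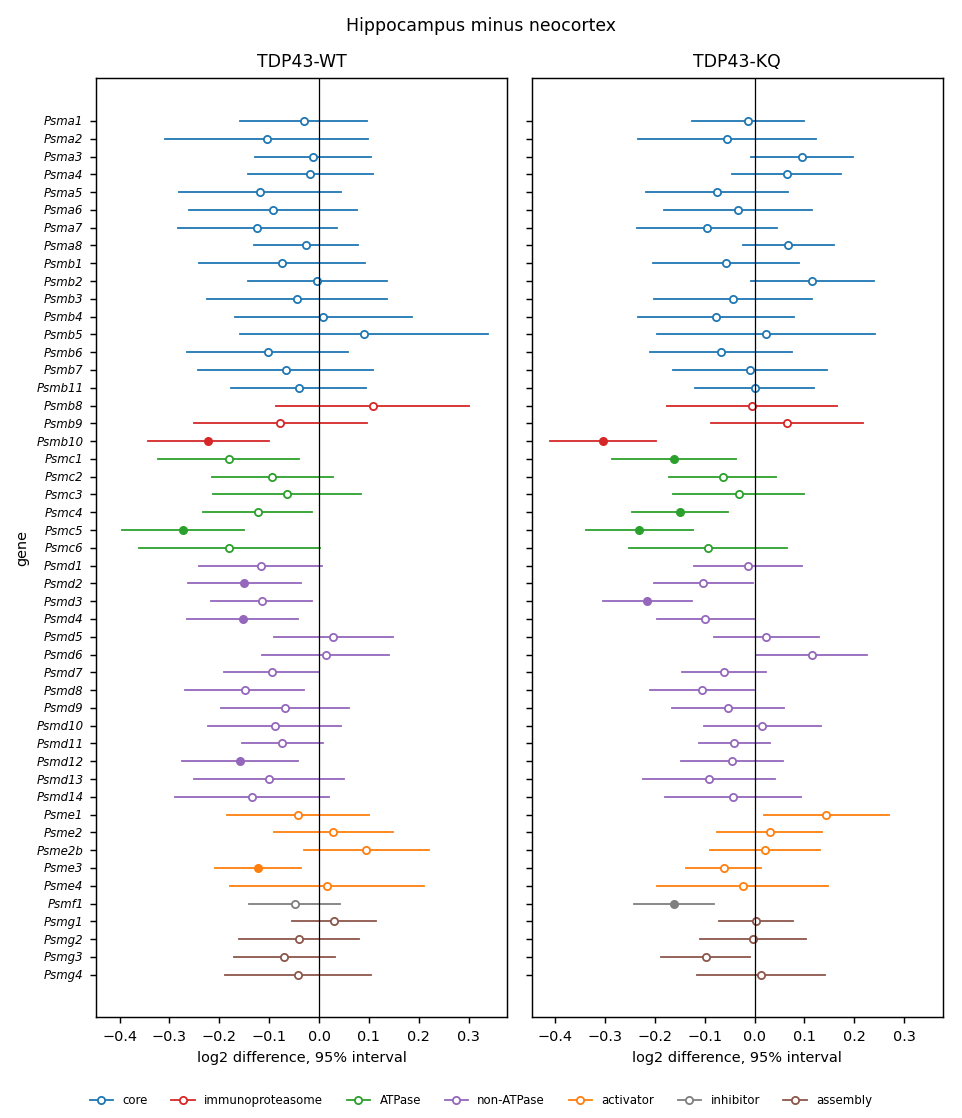
Hippocampus minus neocortex for each member (rows, coloured by class) in TDP43-WT (left) and TDP43-KQ (right), as a log2 difference with its 95% confidence interval from the limma fit. Filled points passed an adjusted p of 0.05. All 6 filled points in each panel lie left of 0, and those of Psmb10 and Psmc5 are filled in both.

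Groups that did not overlap, with the hippocampus lower, were found for 8 members in TDP43-WT (16.3%, all genes 16.8%) and 6 in TDP43-KQ (12.2%, all genes 15.5%). Psmb10, Psmc4, Psmc5 and Psmd3 were among them in both genotypes. Each female library of the hippocampus has a neocortical counterpart with the same genotype, number and litter, which gives 6 pairs that may each come from 1 mouse, although the labels do not say so. The deviations from the group means, after the sex and litter removal, correlated across genes at 0.12, 0.72 and -0.43 in TDP43-WT F1 to F3 and at -0.20, -1 and -0.69 in TDP43-KQ F1 to F3, where the -1 of F2 is fixed by the removal. A difference within such a pair is free of the sex and litter removal, because the same amount was subtracted from both libraries. In all 6 pairs 17 of 49 members (34.7%) were lower in the hippocampus, against 20.9% of all genes. The 17 included all 6 ATPases, with Psmc5 between -0.36 and -0.18, Psmc1 between -0.27 and -0.16 and Psmc4 between -0.34 and -0.072. They also included Psmb10 (between -0.39 and -0.21) and Psmd3 (between -0.36 and -0.10). Psmd12 and Psmd4 were lower in 5 of the 6 pairs. No member was higher in all 6, against 19% of all genes. Of the 36 core, ATPase and non-ATPase genes, between 28 and 35 were lower in 5 of the pairs, and 16 were lower in TDP43-KQ F1.

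With the pairing of the female libraries fitted as a random effect of mouse, 10 members passed in TDP43-WT in place of 6. Psmc1, Psmc4, Psmd3 and Psmd8 were added and none of the 6 was lost. In TDP43-KQ the assembly gene Psmg3 was added, making 7. Counts rose over all genes too. Over all 17863 genes, the number at an unadjusted p under 0.05 went from 6936 to 7821 in TDP43-WT and from 7906 to 8551 in TDP43-KQ, while among the 49 members it went from 10 to 15 and from 12 to 14.

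Other genes of the pathway were taken from lists of 16 proteasome partners and 4 regulators. For genotype, 15 of the 16 partners (93.8%, all genes 50.7%) had a lower value in the neocortex and 11 (68.8%, all genes 50.4%) in the hippocampus. Their medians were -0.057 and -0.047, with no call. The numbers at an unadjusted p under 0.05 were 1 and 4, against 14.4% and 14.8% of all genes. Between the regions 4 of 16 partners passed in TDP43-WT and 6 of 16 in TDP43-KQ, all lower in the hippocampus. Of all genes, 14.7% and 18.2% passed in that direction. Named after its values were seen, Ubqln4, which encodes a shuttle protein that carries ubiquitylated substrates to the proteasome, fell by 0.31 ± 0.05 on the log2 scale in TDP43-WT (adjusted p = 0.000151) and by 0.38 ± 0.04 in TDP43-KQ (adjusted p = 5.42e-06).

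Nfe2l1, the transcription factor that raises proteasome genes when proteasome activity is short, did not differ by genotype beyond its error (-0.014 ± 0.040 in the neocortex, adjusted p = 0.898, and -0.0025 ± 0.0423 in the hippocampus, adjusted p = 0.987). Between the regions it did. In the hippocampus it was at -0.28, -0.20, -0.24 and -0.18 in TDP43-WT and between -0.26 and -0.19 in TDP43-KQ, and in the neocortex no library was below -0.075. It fell by 0.24 ± 0.04 in TDP43-WT (adjusted p = 0.000391) and by 0.23 ± 0.04 in TDP43-KQ (adjusted p = 0.000151). The 4 regulators did not share a direction, as 2 were lower and 2 higher in the hippocampus in each genotype. Nfe2l2, a related factor that responds to oxidative stress, was higher in every hippocampal than in every neocortical library of its genotype, by 0.31 ± 0.06 in TDP43-KQ (adjusted p = 0.000868) and by 0.13 ± 0.07 in TDP43-WT (adjusted p = 0.161). Ddi2, the protease that activates Nfe2l1, was higher in every neocortex TDP43-KQ library than in every TDP43-WT library (0.20 ± 0.07, adjusted p = 0.234). Ngly1, which removes sugar chains from Nfe2l1, gave no call. The 5 ubiquitin and E1 genes gave no call in any comparison of genotype or region, with 1 at an unadjusted p under 0.05 in each of the 4.

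Markers of the regions and of some cell types held calls between the regions, while microglia and endothelial markers held none. Between the regions 4 of 4 hippocampus markers were higher and 4 of 5 neocortex markers lower in the hippocampus in both genotypes, the exception being Fezf2. All 5 neuron markers had lower values in the hippocampus, 3 of them called in TDP43-WT and 4 in TDP43-KQ, with medians of -0.22 and -0.24. Their median per library ran from 0.018 to 0.16 in neocortex TDP43-WT and from -0.23 to -0.091 in hippocampus TDP43-WT. It ran from -0.056 to 0.068 and from -0.35 to -0.18 in TDP43-KQ. The 5 oligodendrocyte markers had medians of 0.26 and 0.12, with 3 and 2 called higher, and the medians of the 4 astrocyte markers were 0.30 and 0.28, with 3 and 2 called higher. The 4 choroid plexus markers can mark tissue taken along in dissection, which was not tested. Their median per library lay between -0.20 and 2.23 in hippocampus TDP43-WT and between 0.28 and 4.03 in TDP43-KQ. In the neocortex it lay between -0.49 and 0.77 in TDP43-WT and between -0.86 and 1.70 in TDP43-KQ. For genotype, all 5 oligodendrocyte markers had lower values in TDP43-KQ in both regions (medians -0.19 and -0.31) with no call. Neuron markers had lower values in TDP43-KQ for 4 of 5 genes in the neocortex (median -0.055) and 5 of 5 in the hippocampus (median -0.12), with no call and 2 at an unadjusted p under 0.05 in each. All 4 hippocampus markers had lower values in hippocampus TDP43-KQ (median -0.25), again with no call and 2 at an unadjusted p under 0.05. Of the 4 meningeal markers Lum rose in the hippocampus (0.51 ± 0.10, adjusted p = 0.0364), and endothelial markers gave no call. The part of cell composition in the proteasome values was not tested.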

How the data were processed

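Per the submitters' processing notes and the study's methods, the authors used cutadapt for trimming and STAR 2.5.2b for alignment to mm10, quantified genes with Salmon and transformed the counts with the variance-stabilising transformation of DESeq2 1.34.0 in R 4.1.0. The deposited values are on a log2-like scale, from which the authors removed sex and litter with limma. Library depth is unknown from these values, so no interval for counting error is given. From the deposited values, 4383 genes at 0 in every library and genes tied at the floor were dropped, leaving 17863 for the tests. All 49 members were kept.

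A linear model with the 4 groups of region and genotype, sex and litter was fitted to all 20 libraries with limma 3.58.1 (R 4.3.3) and empirical Bayes moderation, with 11 residual degrees of freedom. Sex and litter were included again so that degrees of freedom spent on their removal were counted. Genes were called at a Benjamini-Hochberg adjusted p under 0.05, and the procedure was tested on simulated data. Labels do not say whether libraries of both regions came from 1 mouse, so p-values measure the spread between libraries. Replicate numbers were not taken to pair the genotypes, since same-numbered libraries often differ in litter.

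Members were named if they were a catalytic or immunoproteasome subunit, among the 3 core or 3 other members with the highest or lowest genotype difference in a region, or among the 4 with the lowest p between regions. Other members were named after their values were seen: those with an unadjusted p under 0.05 or groups that did not overlap, and the remaining calls between regions. The members and gene lists were chosen with earlier results of these data known. Promoters and positions are from RefSeq (GRCm38.p6, the patched release of mm10). Of 17 proteasome partners, Paaf1 was not matched and Ecpas was matched by an older symbol. The alternatives tried were other model terms, a random effect of mouse, a replicate block, other filters, recentred libraries, robust variances, each region alone and each library left out.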

Additional observations from a re-analysis of the deposited data

Results flagged for a closer look

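Among 116 groups of libraries, formed from 28 named genes and the median over the members, 5 held a library whose gap to the nearest other was large for the range of its group (Dixon's test). About 1 in 20 groups is marked by chance. In 3 of the 5 the library was hippocampus TDP43-WT F2. There the alpha subunit Psma2 was at 0.26, with the other libraries between -0.035 and 0.0078. The beta subunit Psmb4 was also at 0.26, with the others between 0.056 and 0.089. The activator Psme4 was lower in this library, at -0.26, with the others between -0.011 and 0.032. The other two were in hippocampus TDP43-KQ M1, where the ATPase Psmc3 was at 0.11, above the others at -0.11 to -0.044, and the scaffold subunit Psmd2 at -0.051, above the others at -0.12 to -0.11. Causes were not tested.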

How the results depend on the processing

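Over the named members, 1259 alternative values kept direction and side of the threshold, 48 lost a call, 10 gained one and 21 changed sign. No alternative with litter in the fit called a member for genotype. Fits without sex and litter terms keep degrees of freedom that the authors' removal had already spent, and called more genes. Without both terms, 2381 genes and 7 members were called for genotype in the neocortex, 2077 and 2 in hippocampal libraries, and 69 genes for the interaction. Between regions that fit called 7562 genes and 14 members in TDP43-WT and 14 members in TDP43-KQ. With sex but no litter, the neocortex had 1812 genes and 4 members called and the hippocampus 1584 and 1, with 13 and 12 members between regions. With the replicate block in place of litter, 1137 genes and 4 members (Psmc1, Psmc5, Psmd12 and Psmd4) were called in the neocortex. The hippocampus had 941 genes called, the interaction 1 gene, and 13 and 12 members were called between regions. All genes at an unadjusted p under 0.05 between regions numbered 8933 and 9551 without both terms. They numbered 8663 and 9310 with sex but no litter, and 8651 and 9161 with the replicate block. Among the members these counts were 16 and 15, 15 and 15, and 20 and 17. Deviations of same-numbered libraries correlated across genotypes at -0.11 to 0.12 in the neocortex and at -0.60 to -0.13 in the hippocampus. Litter removal fixed some of these deviations, so the correlations cannot show whether the numbers pair the genotypes. The random effect of mouse (correlation 0.27) gave 10 members between regions in TDP43-WT. At an unadjusted p under 0.05 there were 15 members and 7821 of all genes. The stricter filter gave 66 genes in the neocortex. Regions fitted alone, with 4 and 3 residual degrees of freedom, gave 7 and 0 genes for genotype.

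Without both TDP43-WT F2 libraries, an alternative chosen after seeing the data, the genotype calls numbered 17 (neocortex) and 41 (hippocampus). The differences of Psmb5, Psmb10 and Psma1 in the neocortex became 0.055, 0.0014 and 0.00059, and that of Psmb7 in the hippocampus 0.024. The difference of Psmb9 in the neocortex was 0.0096 with the replicate block, and that of Psma4 in the hippocampus -0.0030 in that region alone. With each library left out, calls for genotype ran from 7 (without TDP43-KQ F1) to 123 genes (without hippocampus TDP43-WT F2) in the neocortex and from 8 to 137 in the hippocampus, with 0 members throughout. Calls between regions ran from 2 to 11 members in TDP43-WT and from 4 to 7 in TDP43-KQ. Over all 17863 genes they ran from 3653 to 5882 and from 4978 to 6539. The median over all 49 members ran from -0.11 to -0.048 in the neocortex and from -0.067 to -0.022 in the hippocampus. Signs changed for Psmb5 (-0.12 to 0.058), Psmb8 (-0.055 to 0.11), Psmb9 (-0.11 to 0.042), Psmb10 (-0.070 to 0.0033) and Psma1 (-0.077 to 0.010) in the neocortex, and for Psmb7 (-0.098 to 0.024) and Psma4 (-0.0097 to 0.069) in the hippocampus. The cause of these shifts was not tested.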
